A study of Mus musculus with 18 samples.

Results

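IL-6 was compared with medium alone in STAT3-deficient mouse naive CD4 T cells, on 6 of the 18 arrays of the series. The members are all arrays that the labels give as STAT3-deficient with IL-6 (3 arrays) or with medium alone (3 arrays). The cells were primary CD4 T cells of spleen and lymph nodes on a C57BL/6J background, sorted as CD44-, CD62L+ and CD25-, and kept in culture for 3 hours. The treated cells received interleukin 6 (IL-6) at 20 ng/ml and their controls received no cytokine. Both groups carry the same genotype, given in the labels as Cd4-Cre with STAT3<tm1Dlv>, so the controls are STAT3-deficient too. Cd4-Cre acts in the T cell lineage from thymic development onwards and leaves other cell types their STAT3. A further 3 STAT3-deficient arrays with interleukin 27 (IL-27, 20 ng/ml) and 6 wild type (WT) arrays, 3 with IL-6 and 3 with medium alone, serve for 2 further comparisons. The series text calls each condition a biological triplicate. Whether a triplicate stands for separate mice or separate cultures is not given, so p-values measure the spread between these arrays.

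IL-6 binds its own receptor chain (Il6ra) and signals through the shared chain gp130 (Il6st) and the Janus kinases, which phosphorylate mainly STAT3. Genes induced by interferons carry control sequences of 2 kinds, gamma-activated sites and interferon-stimulated response elements. In CD4 T cells IL-6 is known for driving the Th17 and follicular helper programs through STAT3. Deleting STAT3 leaves the receptor and the kinases in place, so the comparison asks which transcripts IL-6 still changes without this factor.

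Each array gave a signal for 45101 probe sets, and 11971 genes passed the filter on weak signals and were tested. Median signals as deposited lay between 131.5 and 190.4 units on the 6 arrays, and the lowest was IL-6 array 1. No pair of arrays was identical. The general T cell transcript Cd3d was strong, at 25180, 19570 and 20640 units with IL-6 and 22630, 23050 and 23470 with medium. Cd4 gave 3369, 2567 and 2076 units with IL-6 and 3015, 2380 and 2731 with medium. Summed signals of 14 B cell markers were 14290, 13930 and 9034 with IL-6 and 11930, 14010 and 9517 with medium, and those of 14 myeloid markers were 21690, 21610 and 16650 with IL-6 and 19040, 22240 and 13080 with medium. In both lists the third array was the lowest with IL-6 and with medium alike. No marker of B cells, myeloid cells, CD8 T and NK cells, regulatory T cells or red blood cells was called with limma (1, 1, 1, 1 and 0 of 14, 14, 8, 7 and 4 had an unadjusted p under 0.05), and defining genes of B cells such as Ms4a1 were measurable (521, 418 and 402 units with IL-6 and 481, 385 and 433 with medium). The nearest to a call was the B cell gene Bank1, at 549.9, 388 and 396 units with IL-6 and 247, 318 and 234 with medium, groups that did not overlap, with a change of 0.67 ± 0.17 (adjusted p = 0.0508 by limma) that was called in 6 of 21 alternatives.

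The targeted gene itself was read first. The Stat3 probe set used gave 2525, 2208 and 2477 units with IL-6 and 1136, 1283 and 1126 with medium in STAT3-deficient cells, and 9274, 9217 and 10320 with IL-6 and 2940, 2563 and 2293 with medium in WT cells. Within each treatment all STAT3-deficient arrays lay below all WT arrays, as the labels say, although a signal remained. Of the 4 Stat3 probe sets kept, 3 were called higher with IL-6 in STAT3-deficient cells, at 1.16 ± 0.13, 1.00 ± 0.12 and 0.85 ± 0.20 on the log2 scale (SE), and the other stood at -0.28 ± 0.27. Whether these probe sets read the deleted exons is not known here, so the signal checks the label only in part and is no measure of intact STAT3.

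IL-6 raised far more genes than it lowered in cells without STAT3. Calls were made by limma where the adjusted p was below 0.05. By that rule 202 genes were higher with IL-6, which is 1.69% of the genes tested, and 19 were lower, which is 0.159%, or 1.85% in either direction. Of the increases 104 (0.869% of genes tested) were at least 2-fold, 30 at least 4-fold and 11 at least 8-fold, whereas 71 lay between 1.5-fold and 2-fold and 27 below 1.5-fold. Only 2 decreases (0.0167%) reached 2-fold. The median change on the log2 scale was 1.01 among the genes higher, -0.58 among the genes lower and -0.031 over all genes tested. In all 202 genes higher and all 19 lower no IL-6 array overlapped with a medium array, a pattern that 5.34% of all genes showed upwards and 6.37% downwards. Of the 202 genes, 60 had a mean signal in medium below the median of the genes tested, so most lay above it. The filter counted all arrays of the series, so a gene low in medium could pass it through arrays with a cytokine.

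**Figure D1:**
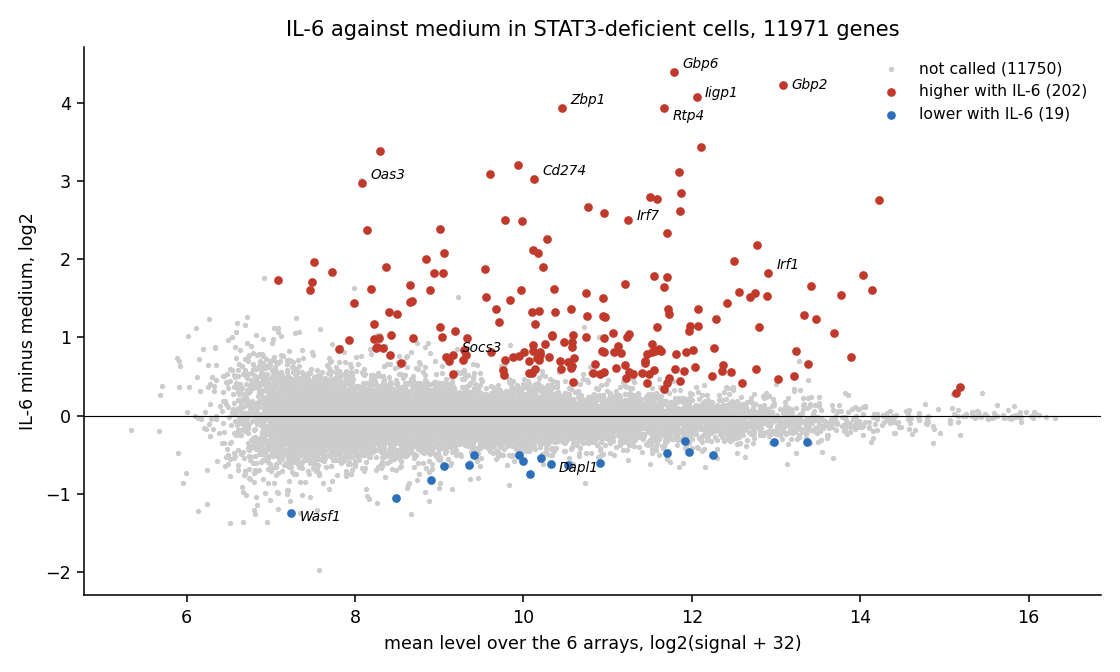
Change with IL-6 (log2, IL-6 minus medium, vertical axis) against mean level over the 6 STAT3-deficient arrays (log2 of signal plus 32, horizontal axis) for 11971 genes. The 202 genes higher with IL-6 (red) reach 4.39, the 19 genes lower (blue) reach -1.25, and grey points were not called.

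The largest increases were in interferon-induced GTPases. Gbp6, a guanylate-binding protein that acts on the vacuoles of intracellular pathogens, gave 18050, 14260 and 16300 units with IL-6 against 629, 768 and 833 with medium, a log2 change of 4.39 ± 0.12 (SE, n = 3 arrays per group, adjusted p = 3.15e-14 by limma, as for all adjusted p-values below), or 21.0-fold. Gbp2, of the same family, gave 38340, 34800 and 39510 units with IL-6 against 1450, 3031 and 1732 with medium, a change of 4.23 ± 0.18. In both genes every IL-6 array was far above every medium array, and for Gbp2 the second medium array was the highest of the 3. Iigp1, an immunity-related GTPase, gave 21170, 15840 and 15990 units with IL-6 against 1105, 1231 and 744 with medium, a change of 4.08 ± 0.15. All 5 guanylate-binding proteins tested rose, with a median change of 3.44. Gbp7 rose by 3.44 ± 0.11, Gbp3 by 3.20 ± 0.22 and Gbp8 by 2.85 ± 0.10. Of 7 immunity-related GTPases tested 5 rose, with a median of 2.75 over the list: beside Iigp1 these were Irgm1 at 2.80 ± 0.17, Irgm2 at 2.76 ± 0.17, Igtp at 2.75 ± 0.12 and Ifi47 at 1.61 ± 0.08. Igtp gave 52190, 47410 and 50000 units with IL-6 against 6585, 9479 and 6373 with medium. Gm4951 stood at 1.63 ± 0.47 (adjusted p = 0.115) and Irgq at -0.09 ± 0.20, and neither passed.

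**Figure D2:**
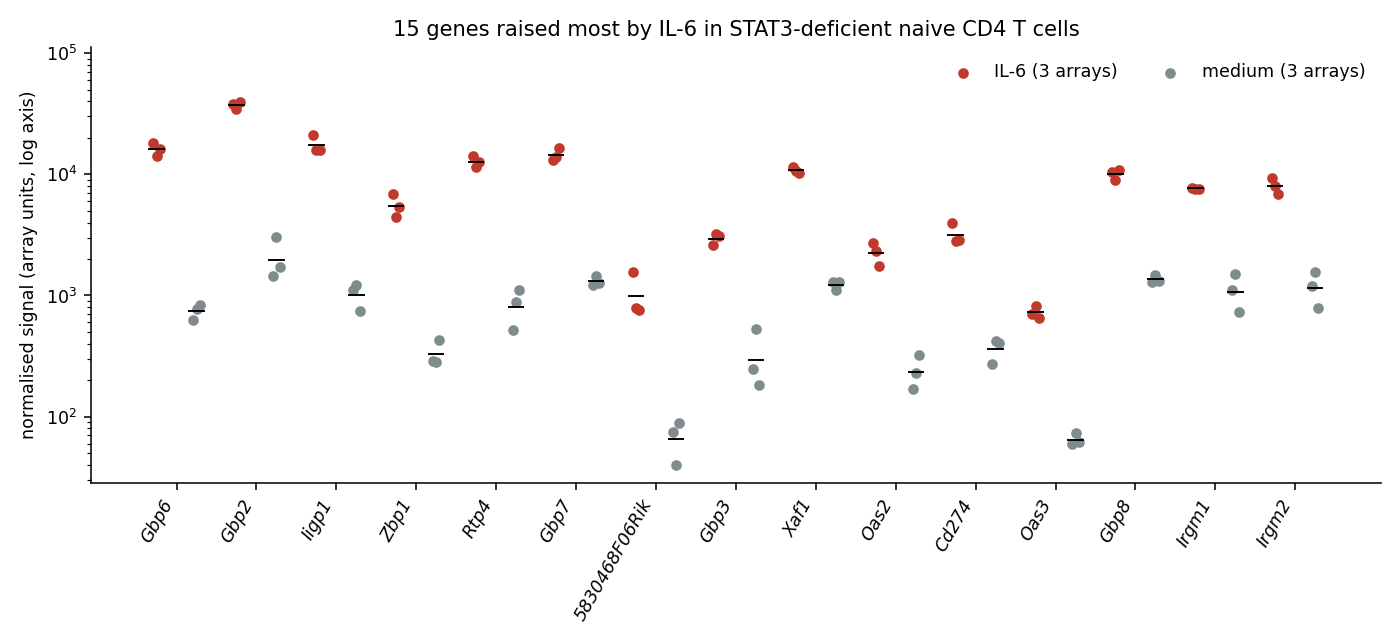
Normalised signal per array (log axis) of the 15 genes raised most by IL-6 in STAT3-deficient cells, IL-6 in red on the left and medium in grey on the right of each gene, with the mean on the log2 scale as a bar. In each gene all 3 IL-6 arrays lie above all 3 medium arrays.

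Promoters were searched for the letters of both kinds of control sequence named above, in windows of 300 bases (250 before to 50 after the start of the gene) of RefSeq genes on GRCm38.p6. A paired GAAA motif (GAAA, any 2 bases, GAAA) stands for the core of the interferon-stimulated response element and TTCNNNGAA for the gamma-activated site, and each was searched on both strands. Among the 169 called genes higher that had a promoter sequence, 41 (24.3%) held the paired GAAA motif and 26 (15.4%) held TTCNNNGAA. Of the 19 with a sequence that rose at least 4-fold these counts were 12 (63.2%) and 4 (21.1%). Of all 9682 genes tested that had a sequence, 355 (3.67%) held the paired GAAA motif and 813 (8.4%) held TTCNNNGAA. Of the 16 genes lower with a sequence, 0 held the first and 1 held the second. These shares describe letters in a fixed window and were not tested, and a match is not a bound site. The 200 bases before the start are printed for genes that hold the matches, to show where they lie and how the kinds differ, with the matched letters in capitals and the strand of the gene given.
Gbp7, chr3:142530136-142530335, plus strand: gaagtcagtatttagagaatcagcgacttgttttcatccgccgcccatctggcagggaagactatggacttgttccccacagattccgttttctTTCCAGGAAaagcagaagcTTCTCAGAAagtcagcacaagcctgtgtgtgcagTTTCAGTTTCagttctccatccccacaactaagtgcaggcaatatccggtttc
Irgm2, chr11:58214777-58214976, plus strand: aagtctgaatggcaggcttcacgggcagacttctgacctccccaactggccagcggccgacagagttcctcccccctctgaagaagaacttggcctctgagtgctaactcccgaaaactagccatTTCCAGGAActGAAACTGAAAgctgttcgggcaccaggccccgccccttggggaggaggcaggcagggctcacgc
Oas3, chr5:120777660-120777859, minus strand: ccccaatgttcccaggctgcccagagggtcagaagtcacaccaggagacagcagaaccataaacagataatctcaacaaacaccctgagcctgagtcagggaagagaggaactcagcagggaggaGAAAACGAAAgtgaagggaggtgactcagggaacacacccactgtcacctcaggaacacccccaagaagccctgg
Socs1, chr16:10785537-10785736, minus strand: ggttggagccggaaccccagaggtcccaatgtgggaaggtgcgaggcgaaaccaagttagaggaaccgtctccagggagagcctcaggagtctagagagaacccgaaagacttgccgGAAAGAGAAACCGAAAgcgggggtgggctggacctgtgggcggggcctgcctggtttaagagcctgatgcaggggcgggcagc
Irf1, chr11:53769814-53770013, plus strand: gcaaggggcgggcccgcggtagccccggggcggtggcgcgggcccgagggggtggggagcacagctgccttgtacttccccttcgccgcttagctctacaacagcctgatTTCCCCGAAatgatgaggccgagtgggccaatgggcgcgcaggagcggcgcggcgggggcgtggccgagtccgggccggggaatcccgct
Socs3, chr11:117969367-117969566, minus strand: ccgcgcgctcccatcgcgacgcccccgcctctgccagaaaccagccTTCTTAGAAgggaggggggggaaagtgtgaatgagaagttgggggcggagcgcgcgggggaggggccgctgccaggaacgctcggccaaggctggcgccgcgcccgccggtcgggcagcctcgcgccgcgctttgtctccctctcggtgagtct
Gbp7 and Irgm2 hold both kinds, and in Irgm2 they lie next to each other, 75 and 64 bases before the start. Oas3 and Socs1 hold the paired GAAA motif only, and in Socs1 there are 2 matches that overlap, at 83 and 77 bases before the start. Irf1, in the first of its 2 promoters, and Socs3 hold TTCNNNGAA only. The windows of Cd274, Irf7, Irf9 and Xaf1 held neither set of letters.

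Genes of antiviral defence rose as a broad group. The oligoadenylate synthetases make the messenger that activates an RNA-degrading enzyme in infected cells, and 5 of 8 tested rose, with a median of 1.69 over the list. Oas2 gave 2718, 2321 and 1753 units with IL-6 against 169.5, 229 and 324 with medium, and Oas3 gave 708, 825 and 650.2 with IL-6 against 59.1, 73.7 and 61.6 with medium. Their changes were 3.09 ± 0.21 and 2.97 ± 0.33, and no IL-6 array came near a medium array. Oas1a, Oasl1 and Oas1b rose by 2.08 ± 0.25, 1.29 ± 0.21 and 1.00 ± 0.17. Oasl2 was uneven, at 79.3, 1705 and 2287 units with IL-6 against 19.9, 80.0 and 113 with medium, so IL-6 array 1 lay within the range of the medium arrays and the change of 3.02 ± 0.97 did not pass (adjusted p = 0.215).

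A gene may stand in more than 1 list. Of 43 antiviral effectors tested 31 rose, with a median of 1.17 against -0.031 over all genes. Rtp4, an interferon-induced inhibitor of flaviviruses, gave 14030, 11560 and 12680 units with IL-6 against 524, 884 and 1112 with medium, a change of 3.93 ± 0.23. Xaf1, a regulator of apoptosis, gave 11570, 10730 and 10230 units with IL-6 against 1283, 1104 and 1284 with medium, a change of 3.12 ± 0.15. Both genes separated the groups by a wide margin, and the 3 arrays of a group agreed more closely for Xaf1 than for Rtp4 in medium. Ifit1 and Ifit3, which bind viral RNA, rose by 2.67 ± 0.36 and 2.60 ± 0.23, Lgals3bp by 2.50 ± 0.15 and the giant ubiquitin ligase Rnf213 by 2.18 ± 0.15. The 12 members that did not pass included Mx1 at 0.98 ± 0.38, Plscr1 at 0.50 ± 0.34, Ifitm1, Ifitm2 and Ifitm3 at 0.44 ± 0.32, -0.07 ± 0.20 and 1.03 ± 0.29, and Ifit1bl2 at -1.26 ± 0.36.

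**Figure D3:**
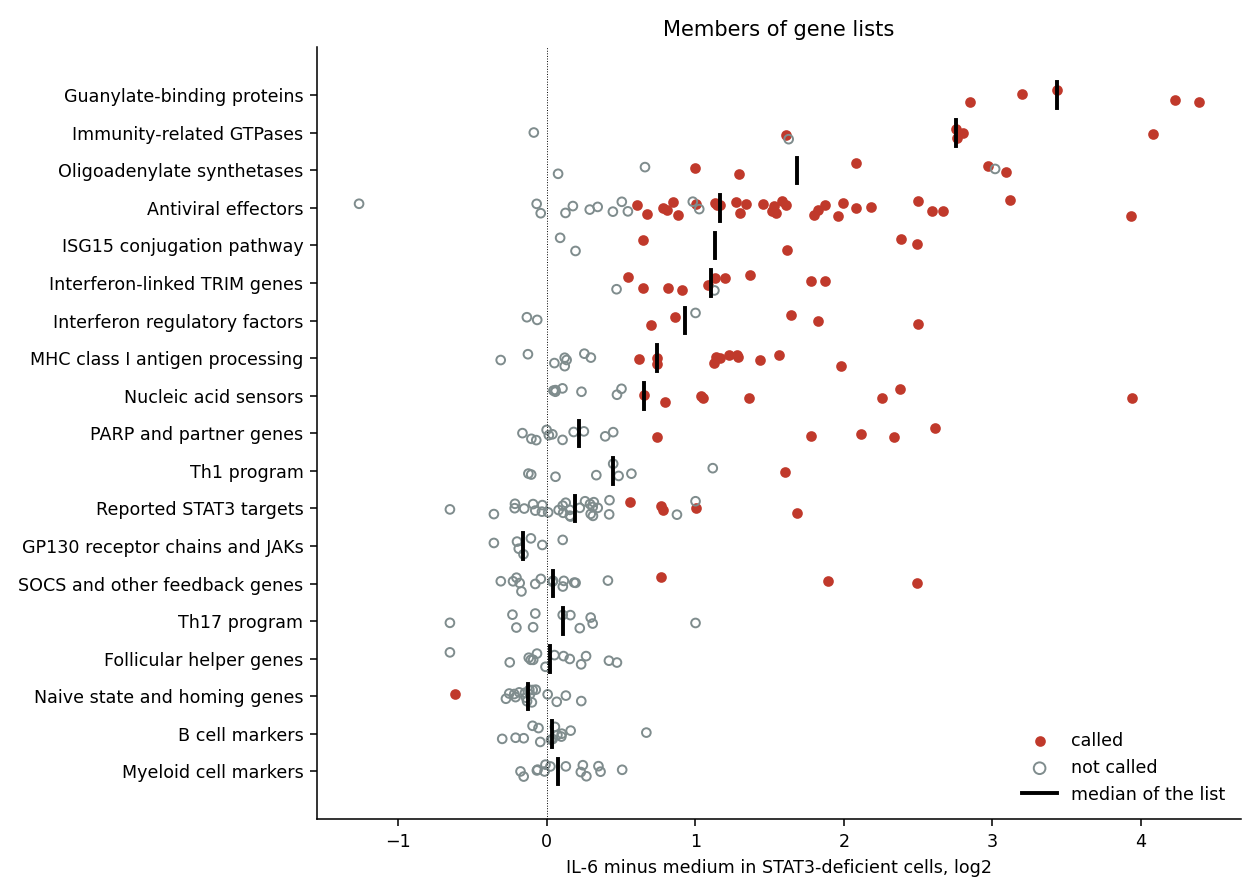
Change with IL-6 in STAT3-deficient cells (log2, IL-6 minus medium) of each tested member of 19 gene lists, one list per line, with called genes filled, uncalled genes open and the list's median as a bar. The guanylate-binding proteins have a median of 3.44, and the Th17 list one of 0.107.

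Many sensors of foreign nucleic acid and enzymes that modify proteins in the same response rose as well. Zbp1, a sensor of Z-form nucleic acid, gave 6841, 4408 and 5376 units with IL-6 against 287, 281 and 428 with medium, a change of 3.94 ± 0.21. Of 15 sensors tested 8 rose, among them the RNA helicases Dhx58 at 2.38 ± 0.28 and Ifih1 at 2.25 ± 0.27, Ifi213 at 1.36 ± 0.17, Mndal at 1.05 ± 0.10 and the RNA editor Adar at 1.04 ± 0.13. Of 6 genes of the ISG15 pathway, which attaches the ubiquitin-like protein ISG15 to other proteins, 4 rose: its protease Usp18 at 2.49 ± 0.27, Herc6 at 2.38 ± 0.18, its activating enzyme Uba7 at 1.62 ± 0.17 and the ligase Trim25 at 0.65 ± 0.15. Trim25 kept no call without medium array 1 or 2 or IL-6 array 1 or 3. Of 16 PARP genes and partners 5 rose, namely Parp9 at 2.61 ± 0.12, Parp14 at 2.33 ± 0.13, Parp12 at 2.12 ± 0.16, the Parp9 partner Dtx3l at 1.78 ± 0.14 and Parp11 at 0.74 ± 0.13. Of 12 interferon-linked TRIM genes 10 rose, with a median of 1.11, led by Pml, the organiser of nuclear bodies, at 1.87 ± 0.16 and Trim30a at 1.78 ± 0.14, with Trim21, an intracellular antibody receptor, at 1.37 ± 0.10, and Trim30d, Trim12a and Trim34a at 1.20 ± 0.15, 1.13 ± 0.11 and 1.08 ± 0.14. Of 7 Schlafen genes 1 rose, Slfn1 at 0.82 ± 0.10. Slfn2 stood at 0.09 ± 0.12, while Slfn8 at 1.52 ± 0.69 and Slfn5 at 0.69 ± 0.39 did not pass. Slfn8 gave 1955, 260.3 and 1756 units with IL-6 and 496, 135 and 469.6 with medium, with the second array the lowest in both groups.

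Much of the machinery that makes and loads peptides for MHC class I rose, while the classical class I chains did not pass the test. Of 20 genes tested 12 rose, with a median of 0.74. Nlrc5, the transactivator of class I genes, gave 13370, 11350 and 9860 units with IL-6 against 2587, 3316 and 2778 with medium, a change of 1.98 ± 0.12. The immunoproteasome subunit Psmb9 gave 15390, 9860 and 10840 units with IL-6 against 4180, 3993 and 3768 with medium, a change of 1.56 ± 0.16. For both genes the lowest IL-6 array lay well above the highest medium array. The peptide transporter chains Tap1 and Tap2 rose by 1.23 ± 0.19 and 1.28 ± 0.10, the loading factor Tapbp by 1.29 ± 0.12 and the non-classical class I gene H2-T24 by 1.44 ± 0.26. The classical chains H2-K1 and H2-D1 stood at 0.12 ± 0.09 and 0.05 ± 0.06 and their partner B2m at 0.13 ± 0.07. H2-K1 gave 67130, 54310 and 60730 units with IL-6 and 52340, 55410 and 59450 with medium, so these groups overlapped at a high level.

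Among transcription factors, 5 of 8 interferon regulatory factors rose. Irf1, an activator of interferon-gamma responses, gave 16720, 12250 and 14580 units with IL-6 against 3914, 4072 and 4112 with medium, a change of 1.83 ± 0.09. Irf7, the amplifier of type I interferon production, gave 6974, 5246 and 5188 with IL-6 against 941, 1059 and 976 with medium, a change of 2.50 ± 0.15. Irf9, a DNA-binding partner of STAT2, gave 5460, 6053 and 5714 with IL-6 against 1894, 1827 and 1716 with medium, a change of 1.65 ± 0.09. In each of these the arrays of a group lay close together and far from the other group. Irf8 and Irf2 rose less, by 0.86 ± 0.18 and 0.70 ± 0.14, and both calls were lost without medium array 3 or without IL-6 array 1. Of 6 STAT genes tested, Stat2 rose by 2.08 ± 0.17 and Stat3 by 1.00 ± 0.12, while Stat4, Stat5b and Stat6 stood at 0.06 ± 0.18, 0.01 ± 0.09 and -0.07 ± 0.10.

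None of the 7 receptor and kinase genes of the IL-6 pathway was called by limma (1 had an unadjusted p under 0.05). Il6ra gave 2040, 2006 and 1972 units with IL-6 and 1942, 1747 and 1897 with medium, and Il6st gave 1309, 1169 and 1191 with IL-6 and 1242, 1143 and 1369 with medium, with changes of 0.11 ± 0.17 and -0.03 ± 0.12. Both receptor chains were thus measurable in both groups. Jak1 and Jak2 stood at -0.11 ± 0.09 and -0.19 ± 0.10, and Il27ra at -0.36 ± 0.14. The median of the list was -0.157 and turned to 0.0945 with median centring. Of 17 feedback genes 3 rose, Usp18, Socs1 and Socs3. Usp18, which also blocks the type I interferon receptor, gave 3002, 2388 and 1850 units with IL-6 against 359, 591 and 289 with medium. Socs1, the inhibitor of interferon signalling, gave 799, 447 and 619 units with IL-6 against 102, 182 and 144 with medium, a change of 1.90 ± 0.20. Socs3, the inhibitor that binds gp130, gave 585, 944 and 669 units with IL-6 against 421, 393 and 411 with medium, a change of 0.77 ± 0.15. The second IL-6 array was the highest for Socs3, and the medium arrays were nearly equal.

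Of the genes that act on other cells, Cd274 changed most. It encodes PD-L1, the ligand of the inhibitory receptor PD-1, and gave 3948, 2817 and 2864 units with IL-6 against 275, 418 and 405 with medium. The change of 3.03 ± 0.17 is 8.17-fold (adjusted p = 6.87e-10). Among 15 checkpoint ligands and receptors, Cd86, a ligand of CD28 and CTLA-4, also rose, by 1.84 ± 0.43, at 271, 375 and 485 units with IL-6 against 11.8, 108 and 193 with medium, and this call was lost without medium array 1 or without IL-6 array 2 or 3. Pdcd1lg2, which encodes PD-L2, gave 157, 195 and 232 units with IL-6 and 229, 181 and 166 with medium, a change of 0.01 ± 0.22 that did not pass. The receptors Icos, Cd28 and Vsir stood at 0.47 ± 0.14, -0.25 ± 0.11 and -0.10 ± 0.13. The chemokine Cxcl10, which attracts CXCR3-bearing T cells, gave 682, 851 and 1204 units with IL-6 against 123, 281 and 329.9 with medium, a change of 1.82 ± 0.42 that lost its call without medium array 1 or without IL-6 array 2 or 3. It was the only called member of 14 chemokines and receptors, beside Ccr7 at -0.12 ± 0.07, Cxcr4 at -0.28 ± 0.22 and Ccl4 at -0.20 ± 0.28. No gene of 6 interferons and interferon receptors tested was called by limma (2 had an unadjusted p under 0.05), with Ifngr1, Ifngr2 and Ifnar1 at 0.23 ± 0.08, 0.35 ± 0.13 and 0.24 ± 0.14.

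Genes reported as STAT3 targets mostly did not pass the test. The share called higher was still above the 1.69% of all genes tested. Their median change was 0.191, against -0.031 over all genes. Of 34 tested 5 rose: the kinase Pim2, Stat3, the RNA-binding protein gene Arid5a at 0.78 ± 0.17, Socs3 and the adhesion molecule Icam1 at 0.56 ± 0.14. Pim2 gave 5005, 3959 and 3732 units with IL-6 against 1222, 1512 and 1141 with medium, a change of 1.69 ± 0.12, the largest of the list. The calls of Arid5a and Icam1 were lost when single arrays were left out, for Icam1 with 5 of the 6 arrays in turn. Bcl3, a partner of NF-kB subunits, gave 930.1, 867 and 746 units with IL-6 and 967, 686 and 764 with medium, a change of 0.08 ± 0.15. Bcl6, the repressor that defines follicular helper cells, stood at 0.15 ± 0.16, Batf, a factor of Th17 differentiation, at -0.09 ± 0.14, and Pim1 and Pim3 at 0.01 ± 0.12 and -0.15 ± 0.14. Gadd45g, a stress sensor, at 0.88 ± 0.41 did not pass, and neither did 3 genes outside the list, Elovl6 at 0.26 ± 0.13, Igfbp4 at 0.07 ± 0.11 and Gzma at 0.64 ± 0.33.

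The helper programs were represented by a single called gene. Tbx21, the transcription factor of Th1 cells, gave 208, 226 and 438 units with IL-6 against 66.0, 69.6 and 72.4 with medium, a change of 1.60 ± 0.27 (adjusted p = 0.00133). The third IL-6 array was the highest, and the medium arrays were nearly equal. The other 8 Th1 genes tested did not pass, among them Stat4, Il18r1 at 0.45 ± 0.24 and Runx3 at 0.57 ± 0.21. The largest change of these was that of Il12rb2, at 1.12 ± 0.36 (adjusted p = 0.224 by limma). It was weak, at 114, 35.4 and 74.7 units with IL-6 against 18.2, 16.2 and 10.5 with medium, groups that did not overlap. The median of the Th1 list was 0.447. None of 14 follicular helper genes and none of 11 Th17 genes was called by limma (2 of each list had an unadjusted p under 0.05), with Il21 at -0.65 ± 0.29, Btla at -0.11 ± 0.42, Sh2d1a at -0.01 ± 0.12, Hif1a at 0.22 ± 0.16, Nfkbiz at -0.20 ± 0.24 and Irf4 at 1.00 ± 0.45. Gata3, the factor of Th2 cells, stood at 0.36 ± 0.19. None of 14 NF-kB genes, 20 immediate early and activation genes and 18 heat shock genes was called by limma (0, 1 and 1 had an unadjusted p under 0.05). Nfkbia, the NF-kB inhibitor, was nearly equal at 41040, 39390 and 43290 units with IL-6 and 38960, 41340 and 43780 with medium. Nr4a1, an early gene of receptor signalling, spread from 3902 to 18550 units within the IL-6 arrays and from 5050 to 19630 within the medium arrays, with the third array of both groups the highest. Of 26 cell death regulators 3 rose, Xaf1, the corepressor Daxx at 1.15 ± 0.10 and the initiator caspase Casp8 at 0.57 ± 0.08.

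Beyond the lists, 102 of the 202 genes higher were in none of the 32 lists examined. The largest of them were 5830468F06Rik at 3.38 ± 0.22, Wars, the tryptophanyl-tRNA synthetase, at 1.91 ± 0.18, and Ccrl2, a chemokine-binding receptor, at 1.73 ± 0.38. Wars gave 2802, 1647 and 2631 units with IL-6 against 643, 713 and 448 with medium. Msl3l2, Tmem140, AW112010, Insl6 and Treml2 rose by 1.71 ± 0.27, 1.67 ± 0.18, 1.66 ± 0.22, 1.62 ± 0.35 and 1.60 ± 0.15. AW112010 gave 23050, 21110 and 14940 units with IL-6 against 6789, 8161 and 4099 with medium. The calls of Ccrl2 and Insl6 were lost without IL-6 array 1, and also without medium array 2 or IL-6 array 3 for Ccrl2 and medium array 1 or 3 for Insl6.

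Some of the genes that rose lay side by side on a chromosome. In the order of RefSeq genes restricted to those tested, 69 of the 202 (34.2%) were next to another gene that rose, beside 318 (2.71%) of the 11743 placed genes not called higher, a description that was not tested. They formed 30 runs, of which 8 held 3 or more genes. On chromosome 17 the run was Psmb9, Tap1, Psmb8 and Tap2, on chromosome 16 Parp14, Dtx3l and Parp9, and on chromosome 3 Gbp7, Gbp3 and Gbp2. On chromosome 19 there were Ifit2, Ifit3 and Ifit1bl1, and apart from them Insl6, Plgrkt and Cd274. That last run ended on both sides: Plgrkt rose by 0.83 ± 0.10, while Jak2 before Insl6 and Pdcd1lg2 after Cd274 stood at -0.19 ± 0.10 and 0.01 ± 0.22. Several of these runs are gene families whose members resemble each other in sequence.

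Decreases were few and small. Cd5, a brake on T cell receptor signalling, gave 4188, 3891 and 4110 units with IL-6 against 5800, 5784 and 5675 with medium, a change of -0.50 ± 0.11. Dapl1, a gene of naive T cells, gave 1033, 919 and 1055 units with IL-6 against 1775, 1403 and 1513 with medium, a change of -0.62 ± 0.12. The groups did not overlap in either gene, and in these bulk samples fewer cells of a type and less RNA per cell cannot be told apart. Wasf1, an actin regulator, and St6galnac3, a sialyltransferase, fell most on the log2 scale, by 1.25 ± 0.27 and 1.06 ± 0.22. Wasf1 was weak, at 71.6, 41.5 and 92.8 units with IL-6 against 249, 174 and 186 with medium. The adaptor Lat fell by 0.33 ± 0.07 and the diacylglycerol kinase Dgkz by 0.34 ± 0.08. The clock repressor Cry1 fell by 0.75 ± 0.17, the RNA methyltransferases Nsun2 and Trmt1 by 0.63 ± 0.15 and 0.58 ± 0.13, and the splicing factor Prpf19 by 0.33 ± 0.07. Other probe sets of Trmt1 and Prpf19 reached 0.23 and -0.00049. The other 9 genes lower, Xkrx, Zfp874b, Sh3pxd2a, Rbfa, Strbp, Ampd2, Zfp429, Pisd and Atp1b1, lay between -0.82 ± 0.19 and -0.47 ± 0.12. The count of decreases moved with the scaling: 11 were called on the deposited scale and 1 with median centring, which moves the median of all genes to 0.132. It was 9 without medium array 1, of which 6 were among the 19, and 12 without medium array 3, of which 7 were. Without IL-6 array 2 it was 15, of which 4 were among the 19. Each decrease lost its call in 4 (Dapl1 and Wasf1) to 13 (Atp1b1) of 21 alternatives, Cd5 and Lat in 8 and Dgkz in 12. Of single arrays, leaving out medium array 1 ended the calls of Dapl1, Wasf1, Cd5 and Dgkz, and leaving out IL-6 array 2 those of Wasf1, Cd5, Lat and Dgkz.

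Of 18 genes of the naive state and homing 1 fell, Dapl1, and the median was -0.125, which turned to 0.143 with median centring. Satb1, Ets1 and Il7r, high in resting T cells, stood at -0.11 ± 0.15, -0.22 ± 0.30 and -0.10 ± 0.09. All 11 markers of naive T cells had fitted values below 0, with a median of -0.241 that turned to 0.082 with median centring, and Cd5 was the only one called. Cd3d and Ccr7 stood at -0.09 ± 0.08 and -0.12 ± 0.07.

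Set against WT cells, where STAT3 was present, IL-6 acted differently on many of these genes. The difference was tested as an interaction, the change with IL-6 in STAT3-deficient cells minus the change in WT cells, and no array is shared by the 2 sides. Over all genes tested it was called positive for 219 (1.83%) and negative for 150 (1.25%). Of the 202 genes higher without STAT3, 112 were also higher in WT cells, which is 55.4% of the 202 and 25.5% of the 439 genes (3.67%) higher in WT cells, where 557 (4.65%) were lower. Of the same 202 the interaction was positive for 58, negative for 8 and not called for 136, a description only, since the STAT3-deficient arrays enter both the choice and the difference. Array medians as deposited were 131.5 to 190.4 in STAT3-deficient cells and 104.4 to 126.1 in WT cells. Summed B cell markers were 9034 to 14290 in STAT3-deficient cells and 3878 to 6970 in WT cells, and summed myeloid markers were 13080 to 22240 in STAT3-deficient cells and 10590 to 13820 in WT cells. Single markers differed more than these sums. In STAT3-deficient cells S100a8 gave 1199 to 3495 units and H2-Aa 462 to 1442, and in WT cells 13.7 to 56.8 and 43.3 to 104.3. Others did not, such as Ctss, the strongest myeloid marker, at 8420 to 13430 in STAT3-deficient cells and 8254 to 10670 in WT cells. Cd68 was 78.4 to 134.4 in STAT3-deficient cells and 114.2 to 195.7 in WT cells. The part of array medians and of these markers in the differences was not tested.

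Xaf1 had the largest positive difference among the genes named here. It gave 11570, 10730 and 10230 units with IL-6 against 1283, 1104 and 1284 with medium in STAT3-deficient cells, and 136, 124 and 168 with IL-6 against 127, 84.3 and 77.8 with medium in WT cells. The difference of changes was 2.66 ± 0.21 (SE, adjusted p = 2.76e-07), and in medium too all 3 STAT3-deficient arrays lay far above all 3 WT arrays. Cd274 gave 431, 503 and 403 units with IL-6 against 356, 267 and 233 with medium in WT cells, and its difference was 2.43 ± 0.25 (adjusted p = 7.67e-06). Usp18 gave 632, 312 and 326 with IL-6 against 356, 393 and 303 with medium in WT cells, which overlapped, and its difference was 2.30 ± 0.38 (adjusted p = 0.00122). The change with IL-6 was thus larger without STAT3 for each of these genes. It was also larger for Gbp6, Irgm2, Gbp8 and Iigp1, with differences of 2.17 ± 0.17, 1.89 ± 0.23, 1.74 ± 0.14 and 1.63 ± 0.21. For Gbp2, Gbp3, Irf9, Socs1, Rnf213 and Parp14 the difference was not called, at -0.30 ± 0.25, 0.06 ± 0.32, 0.24 ± 0.13, -0.06 ± 0.29, 0.19 ± 0.22 and 0.21 ± 0.19. By list, the interaction was positive for 5 of 7 immunity-related GTPases and 3 of 5 guanylate-binding proteins. It was also positive for 14 of 43 antiviral genes and 6 of 20 class I genes, and for 0 of 8 oligoadenylate synthetases by limma. Of those 8, 4 had an unadjusted p under 0.05, beside 1514 of all 11971 genes.

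**Figure D4:**
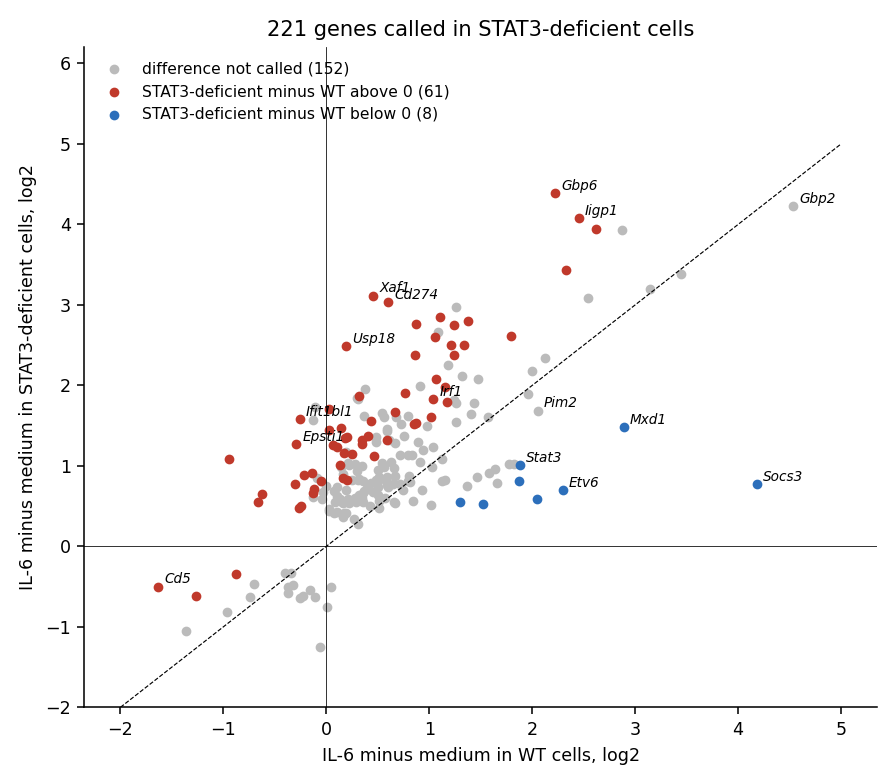
Change with IL-6 in STAT3-deficient cells (vertical axis, log2) against the change in WT cells (horizontal axis, log2) for the 221 genes called in STAT3-deficient cells, coloured by the interaction (red positive, 61 genes, and blue negative, 8 genes) and with equal change on the dashed line. Xaf1 and Cd274 lie far above the line and Socs3 far below it.

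In the other direction stand genes whose response to IL-6 was smaller without STAT3. Socs3 gave 10010, 11170 and 9393 units with IL-6 against 536, 473 and 587 with medium in WT cells, and its difference was -3.41 ± 0.21 (adjusted p = 1.36e-08). Elovl6, a fatty acid elongase, gave 305, 300 and 321 units with IL-6 against 218, 241 and 306 with medium without STAT3, and 5701, 6478 and 6365 with IL-6 against 399, 370.2 and 424 with medium in WT cells. The difference for Elovl6 was -3.59 ± 0.18. Bcl3, Igfbp4, Gadd45g, Gzma, Batf and Bcl6 also responded less, with differences of -2.76 ± 0.21, -2.85 ± 0.15, -3.03 ± 0.59, -2.69 ± 0.47, -1.81 ± 0.20 and -1.64 ± 0.23. For Pim2 the difference of -0.37 ± 0.18 was not called (adjusted p = 0.4), and its WT signals were 4234, 4520 and 4648 with IL-6 against 1197, 937 and 1039 with medium. Of the 34 reported STAT3 targets 14 had a negative and 1 a positive interaction. The 8 genes that rose without STAT3 but less than in WT cells were Socs3, Stat3, Icam1, Arid5b, Etv6, Map3k5, Mxd1 and Tlr1. Among them Mxd1, a MYC antagonist, gave 1375, 1683 and 1463 units with IL-6 against 415, 428 and 778 with medium without STAT3, and 3436, 2844 and 3003 with IL-6 against 312, 494 and 379 with medium in WT cells.

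A few genes moved in opposite ways. Cd9, Slco3a1 and Trim25 rose without STAT3 and fell in WT cells, with changes of 0.56 ± 0.13, 1.08 ± 0.26 and 0.65 ± 0.15 without STAT3 against -0.66 ± 0.13, -0.94 ± 0.26 and -0.62 ± 0.15 in WT cells. Their interactions were 1.22 ± 0.19, 2.02 ± 0.37 and 1.27 ± 0.21, all called. Slco3a1 kept no call for its own rise in 10 of 21 alternatives, among them the deposited scaling and leaving out medium array 1 or 2 or IL-6 array 1 or 3. Of the 19 genes lower without STAT3, 10 were also lower in WT cells and 3 had a positive interaction, Cd5 at 1.14 ± 0.15, Dapl1 at 0.65 ± 0.17 and Dgkz at 0.54 ± 0.11, so they fell less without STAT3. Cd5 in WT cells gave 1586, 2054 and 1990 units with IL-6 against 5505, 5742 and 6380 with medium.

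IL-27, which also signals through gp130, was set directly against IL-6 in STAT3-deficient cells at the same dose and time. IL-27 gave higher signals for 46 genes (0.384%) and lower for 1 (0.00835%), Adgre5 at -0.55 ± 0.09. The IL-6 arrays serve here as the comparison, so these differences are not independent of the changes above. Cxcl10 gave 2914, 4276 and 4037 units with IL-27 and 682, 851 and 1204 with IL-6, a difference of 2.02 ± 0.42 (adjusted p = 0.0424). Irf8 gave 1955, 1573 and 1392 with IL-27 and 474, 364 and 382 with IL-6, a difference of 1.93 ± 0.18 (adjusted p = 2.12e-05). Both genes had all IL-27 arrays above all IL-6 arrays. Socs1 gave 2664, 2499 and 1726 with IL-27 and 799, 447 and 619 with IL-6, a difference of 1.84 ± 0.20. Cd274 gave 9400, 10470 and 7467 with IL-27 and 3948, 2817 and 2864 with IL-6, a difference of 1.5 ± 0.17 (adjusted p = 0.000143). Tbx21, Wars, Irf1, Icam1, Stat3 and Pim2 were also higher with IL-27, by 1.32 ± 0.27, 1.27 ± 0.18, 0.84 ± 0.09, 0.88 ± 0.14, 0.76 ± 0.12 and 0.74 ± 0.12. All 5 guanylate-binding proteins were higher with IL-27, with Gbp8 at 1.01 ± 0.10, as were 3 of 7 immunity-related GTPases, with Iigp1 at 0.89 ± 0.15. Bcl6, which did not pass with IL-6, gave 1786, 1464 and 1597 units with IL-27 and 679, 946 and 936 with IL-6, a difference of 0.91 ± 0.16.

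**Figure D5:**
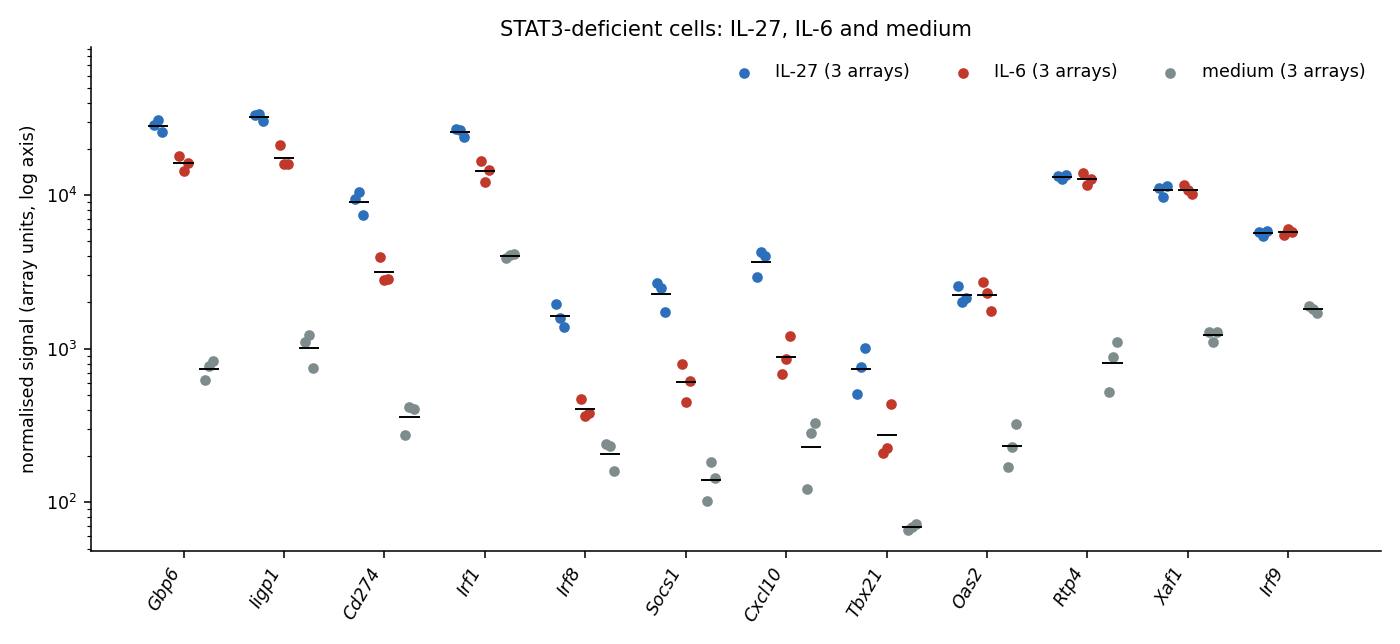
Normalised signal per array (log axis) of 12 genes in STAT3-deficient cells with IL-27 (blue), IL-6 (red) and medium (grey), with the mean on the log2 scale as a bar. Cd274, Irf8, Socs1 and Cxcl10 are higher with IL-27 than with IL-6, while the arrays of both cytokines overlap for Oas2, Rtp4, Xaf1 and Irf9.

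Other genes of the same response did not pass between the cytokines. Xaf1 gave 11170, 9699 and 11530 units with IL-27 and 11570, 10730 and 10230 with IL-6, a difference of -0.01 ± 0.15, and Oas2 gave 2570, 2011 and 2145 with IL-27 and 2718, 2321 and 1753 with IL-6, a difference of 0.00 ± 0.21. Both pairs of groups overlapped. Rtp4, Irf9, Irf7, Usp18 and Zbp1 stood at 0.05 ± 0.23, -0.02 ± 0.09, 0.15 ± 0.15, 0.29 ± 0.27 and 0.52 ± 0.21. By limma none of 8 oligoadenylate synthetases, 15 sensors, 12 TRIM genes or 20 class I genes differed between IL-27 and IL-6. Of these 0, 2, 2 and 8 had an unadjusted p under 0.05, beside 633 of all 11971 genes. Among 43 antiviral genes 1 differed. For 170 of the 202 genes higher with IL-6 the fitted IL-27 value was above that of IL-6, beside 6129 of all genes. The median IL-27 minus IL-6 difference was 0.253 among the 202 and 0.00465 over all genes. This is a description only, since the IL-6 arrays enter both the choice and the difference. A p that misses the threshold does not show that both cytokines act alike. The number of genes that differed between the cytokines was 13 with median centring, 24 without IL-6 array 2, 29 without IL-6 array 3, 26 without IL-27 array 1 and 31 without IL-27 array 2.

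Repeat probe sets of the same genes gave a check within the arrays. Of the 202 genes higher, 111 had several probe sets that passed the filter, and in 106 of them every probe set had a fitted value above 0, while in 42 every one was called. A value above 0 could still be far smaller. Dhx58 had probe sets at 2.38 and 0.0019 and Rnf213 at 2.18 and 0.37, and in each gene 1 of 2 was called. In 5 genes, Arid5b, Eif2ak2, Stat3, Trim26 and Vopp1, at least 1 probe set lay at or below 0. Eif2ak2, the RNA-activated kinase that blocks translation, had probe sets at 1.45 ± 0.21, 1.13 ± 0.26 and -0.29 ± 0.21. The other 91 genes higher rested on 1 probe set each. Among the genes lower, Trmt1, Sh3pxd2a and Strbp each had a probe set above 0, at 0.23, 0.15 and 0.18. With each probe set tested on its own, 1 of 3 was called lower for Trmt1, 1 of 2 for Sh3pxd2a and 1 of 6 for Strbp. For Prpf19 it was 1 of 4, for Ampd2 and Dgkz 1 of 2 each, and for Atp1b1 0 of 4.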

How the data were processed

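Expression was measured on Affymetrix Mouse Genome 430 2.0 arrays, on 18 arrays in 6 groups of 3. The table deposited by the authors holds linear intensity (signal) values, made with GCOS per the submitters' processing notes; no version or settings are recorded. From the values, each array was scaled to a trimmed mean of 500 (2% trimmed at each end). The number of arrays limits the precision.

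Array medians differed 1.82-fold, above the limit of 1.5, so log2(signal + 32) was quantile normalised, and signals quoted are normalised values with 32 subtracted. Differences on this log2 scale, computed from the deposited intensities, understate the change of weak genes. Of 45101 probe sets, 64 were controls and 34945 carried 1 gene symbol in GEO's platform annotation. A probe set was kept if above its array's median on at least 3 arrays, and the kept one with the highest mean stood for its gene (11971 genes). limma 3.58.1 in R 4.3.3 fitted 6 group means (12 residual degrees of freedom, moderated with a variance trend), two-sided, with Benjamini-Hochberg adjustment over all genes for each of 3 comparisons: IL-6 against medium, the interaction with genotype, and IL-27 against IL-6. On simulated arrays of 11971 genes, IL-6 against medium recovered 42% of 1.5-fold, 74% of 2-fold and 94% of 4-fold increases and 60% of 2-fold decreases. The interaction recovered 12%, 44% and 84% of the same increases, and IL-27 against IL-6 28%, 70% and 90%. Promoter sequences are from RefSeq (GRCm38.p6).

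The arrays, lists and tests were chosen with earlier results of these data known. Genes were named by a rule: the 15 largest increases and all decreases, up to 6 called genes of each of 32 lists (with up to 3 uncalled members of high signal where fewer than 3 were called), a set of genes of interest, the 8 largest increases in no list and the 8 largest interactions in each direction. Named after their values were seen were Adgre5, Arid5b, B2m, Cd9, Eif2ak2, Epsti1, Etv6, Gm4951, H2-D1, H2-K1, Ifit1bl1, Ifit1bl2, Ifit2, Ifitm1, Ifitm2, Ifitm3, Il12rb2, Irgq, Map3k5, Ms4a1, Mx1, Mxd1, Oasl2, Plgrkt, Plscr1, Psmb8, Tlr1, Trim26 and Vopp1. Same-numbered IL-6 and medium arrays had correlated deviations of -0.119, 0.135 and 0.184, so the numbers were not taken to pair arrays. Some genes followed the number all the same, both markers and others such as Nr4a1 and Slfn8. Whether such arrays share a preparation is not known. Alternatives varied the scaling, added constant, filter, probe set, variance model, arrays in the fit, minimum fold, replicate block and a covariate of B cell and myeloid markers, and left out single arrays.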

Additional observations from a re-analysis of the deposited data

Results flagged for a closer look

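A test of the difference itself marked 64 of the genes named by the rule given above: the change with IL-6 without STAT3 minus the change in WT cells was called by limma (adjusted p under 0.05). All values are differences of log2 changes, and those above 0 were larger, or less negative, without STAT3. Among interferon-induced GTPases the differences were Gbp6 2.17, Irgm2 1.89, Gbp8 1.74, Iigp1 1.63, Igtp 1.52, Irgm1 1.43, Gbp7 1.11 and Ifi47 0.59. Among antiviral genes, sensors and modifiers they were Xaf1 2.66, Usp18 2.30, Pml 1.56, Ifit3 1.54, Dhx58 1.52, Zbp1 1.32, Trim25 1.27, Lgals3bp 1.17, Herc6 1.14, Trim21 0.96, Daxx 0.90, Parp9 0.82 and Slfn1 0.62. Genes of class I antigen processing stood at Psmb9 1.13, Tap1 1.12, Tap2 0.93 and Nlrc5 0.83. Transcription factors, receptors and kinases above 0 were Gata3 1.39, Irf7 1.29, Stat2 1.02, Irf1 0.79, Ifngr2 0.81 and Jak1 0.62. Genes of the cell surface were Cd274 2.43, Klrd1 1.19, Cxcr4 1.16, Cd5 1.14, Cd28 0.82, Il7r 0.55 and Ighm 1.11, of which Ighm is a B cell marker and Klrd1 a marker of NK cells. The remaining genes above 0 were Pdlim4 2.20, Slco3a1 2.02, Sntb1 1.87, Msl3l2 1.69, Wars 1.14, Tmem140 1.00, Dapl1 0.65 and Dgkz 0.54. Below 0 stood Elovl6 -3.59, Socs3 -3.41, Gadd45g -3.03, Slco4a1 -2.94, Serpinb1a -2.91, Rragd -2.86, Igfbp4 -2.85, Bcl3 -2.76 and Gzma -2.69, followed by Batf -1.81, Il21 -1.74, Bcl6 -1.64, Hif1a -1.03, Il6st -0.90, Stat3 -0.87, Pim1 -0.81, Jund -0.80 and Icam1 -0.74. Of the genes named after their values were seen, the interaction was also called for Ifit1bl1 1.84, Epsti1 1.57, Adgre5 1.46, Cd9 1.22, Ifit2 1.11, Vopp1 1.08 and Psmb8 0.66 above 0, and for Plscr1 -2.65, Etv6 -1.59, Map3k5 -1.46, Mxd1 -1.41, Arid5b -1.06 and Tlr1 -0.99 below 0.

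Probe sets outside the comparisons by gene were tested as well. Of 655 kept probe sets with several gene symbols 13 (1.98%) were called higher with IL-6 in STAT3-deficient cells, beside 1.69% of the genes tested. Of 4666 probe sets with no symbol 32 (0.686%) were, with the medium arrays as the control. These probe sets name no single gene here.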

How the results depend on the processing

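The 202 genes higher with IL-6 became 76 with a tested minimum of 1.5-fold and 126 when only the 6 arrays were fitted, and the count lay between 162 (without IL-6 array 1) and 187 when single arrays were left out. The 19 genes lower became 11 on the deposited scale, 1 with median centring, 29 with array weights, 0 with a minimum of 1.5-fold (by limma; 979 genes in both directions had an unadjusted p under 0.05 in the main comparison), 11 without the STAT3-deficient arrays numbered 3 and 1 when only the 6 arrays were fitted. Leaving out single arrays gave 9 (without medium array 1) to 17 genes lower, of which 4 (without IL-6 array 2) to 11 were among the 19, so which genes were lower changed too. The 369 interactions became 47 with the minimum fold and lay between 272 and 382 without single arrays. The 47 differences between IL-27 and IL-6 became 13 with median centring, 28 with no variance trend, 2 with the minimum fold and 17 with only the arrays compared, and lay between 24 (without IL-6 array 2) and 47 without single arrays. The cause of these shifts was not tested, beyond the fewer arrays or the higher threshold that some settings bring.

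With the replicate block the counts were 247 higher, 54 lower, 635 interactions and 74 differences between the cytokines. Among named genes the block added calls for 7, Slfn8 (adjusted p = 0.00042 by limma), Irf4, Icos, Gadd45g, Runx3, Cd28 and Ifngr1. The labels do not say that the numbers pair arrays, and the correlations did not show it. Some genes did follow the number in STAT3-deficient cells, and not only markers. Slfn8 was lowest on the second array with IL-6, medium and IL-27 alike, at 260.3, 134.9 and 248.5 units. H2-Aa gave 1422, 1091 and 481 units with IL-6, 1442, 1052 and 462 with medium and 1471, 1186 and 424.5 with IL-27. Others did not, such as Cst3 at 1619, 1181 and 1377 with IL-6 and 1481, 1389 and 1463 with medium. Whether same-numbered arrays share a preparation is thus not known, and the main fit treats them as unpaired.

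Of 95 named genes that were called, 53 kept the call in every alternative and 66 in all but the minimum fold and the 6-array fit. Of 72 not called, 9 were called in some alternative, and 0 of the values of called genes changed sign. Calls are limited by 3 arrays a group: the median SE was 0.185 for the change with IL-6 and 0.262 for the interaction.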
